A study of Mus musculus with 34 samples.

Results

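The genes described here are the 10 rows of a 16389-gene expression table whose symbols are Apoe, Trem2, Tyrobp, Clec7a, Cst7, Lpl, Axl, Itgax, Spp1 and Cd9, a set best known from disease-associated microglia. They were chosen by name, and all 10 have a row. The libraries are bulk RNA sequencing of 3 dissected brain regions of C57BL/6 mice: cortex, hippocampus, and thalamus dissected jointly with the striatum, called thalamus below. WT CON mice were wild-type animals labelled as vehicle-treated, with no irradiation, no transplant and no PLX3397. GFP-BM CON mice were irradiated with 1000 cGy and given bone marrow from donors that carry a GFP transgene, and no PLX3397. GFP-BM REPOP mice were irradiated and transplanted in the same way and then ate PLX3397, an inhibitor of the receptor CSF1R on which microglia depend, at 600 ppm for 14 days from 3.5 months after irradiation, and were left for 6 months afterwards. Each treatment had 4 mice, and the labels give no age. WT CON gave 3 cortex, 4 hippocampus and 4 thalamus libraries, GFP-BM CON gave 4, 4 and 3, and GFP-BM REPOP gave 4 of each, 34 in all. The irradiation was to the whole body, so both GFP-BM groups share it with the transplant, and GFP-BM REPOP against WT CON cannot tell these from the later myeloid turnover. In bulk tissue, fewer cells of a type and less RNA per cell cannot be told apart.

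Microglia around amyloid plaques, dying cells and damaged myelin enter a disease-associated state in which genes of lipid uptake and phagocytosis are raised. TREM2, a surface receptor for lipids and lipoproteins, signals through the adaptor TYROBP, and the full state depends on it. APOE, the main apolipoprotein of the brain, is a ligand of TREM2, and its transcript is one of those that rise in that state. Trem2, Tyrobp, Clec7a, Cst7 and Itgax are in the brain mainly myeloid genes. Apoe is made above all by astrocytes in the healthy brain, Cd9 by oligodendrocytes, astrocytes and endothelium, Axl by astrocytes and endothelium as well, Lpl by neurons and some astrocytes, and Spp1 by some neurons and border tissue, so 4 of the 10 (Apoe, Axl, Cd9 and Lpl) are also astrocyte products.

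The promoters of the 2 genes whose calls are described below, Apoe and Clec7a, and of the receptor gene Trem2 are shown as RefSeq gives them on GRCm38.p6, the assembly of the mm10 build named by the submitters. Each window runs from 250 bases before to 50 after an annotated start, 5′ to 3′ on the gene's strand. Capitals mark matches, on either strand, to 1 of 3 short motifs: GAGGAAGT for the myeloid factor PU.1, CACGTG for the E-box, and TGANTCA for AP-1.
Clec7a, chr6:129472736-129473035, minus strand: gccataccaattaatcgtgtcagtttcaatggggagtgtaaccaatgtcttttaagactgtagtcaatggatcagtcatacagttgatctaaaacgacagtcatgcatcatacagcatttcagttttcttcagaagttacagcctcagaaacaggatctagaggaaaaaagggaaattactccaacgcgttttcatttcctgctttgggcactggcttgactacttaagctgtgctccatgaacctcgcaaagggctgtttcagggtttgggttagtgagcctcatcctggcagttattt
Apoe, chr7:19699139-19699438, minus strand: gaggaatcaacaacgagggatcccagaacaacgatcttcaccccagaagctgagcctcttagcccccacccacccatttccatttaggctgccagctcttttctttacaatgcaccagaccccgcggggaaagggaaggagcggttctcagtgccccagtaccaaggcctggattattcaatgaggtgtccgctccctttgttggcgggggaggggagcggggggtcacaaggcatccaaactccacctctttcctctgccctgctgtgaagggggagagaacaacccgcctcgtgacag
Trem2, chr17:48346151-48346450, plus strand: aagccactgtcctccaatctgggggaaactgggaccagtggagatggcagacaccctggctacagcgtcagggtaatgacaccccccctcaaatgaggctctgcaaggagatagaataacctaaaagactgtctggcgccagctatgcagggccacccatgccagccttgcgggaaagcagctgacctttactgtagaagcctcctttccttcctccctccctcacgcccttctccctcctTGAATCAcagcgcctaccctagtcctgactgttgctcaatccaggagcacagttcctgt
Clec7a (chromosome 6, 129461591 to 129472785) and Apoe (chromosome 7, 19696244 to 19701310) hold no match in these windows, and the Apoe window starts at an internal annotated start because none covers the outermost. Trem2 (chromosome 17, 48346401 to 48352276) holds an AP-1 match 9 bases before its start, as Cst7 (6 bases before) and Itgax (56 bases before) do, while Spp1 holds a PU.1 match. Of 32851 RefSeq windows of this length 7.81% hold the AP-1 letters, 3.2% the PU.1 letters and 7.15% the E-box letters. Axl and Cd9 held none of the 3, and no window was found for Tyrobp or Lpl.

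The libraries held between 17085018 and 26010509 whole reads over the listed genes (median 21367227), recovered from the steps of the FPKM values (fragments scaled to gene length and library depth). Reads behind one member ranged from 3 in a library for Cst7 to 65153 for Apoe. Of the 10 genes, 9 passed the filter of 1 FPKM in at least 3 libraries. Itgax did not, with its highest value at 0.783 FPKM, and was not tested. Clec7a passed with 8 libraries, 7 of them GFP-BM REPOP and 1 GFP-BM CON, so the filter favoured it where it was high. Cst7 passed with 6 libraries, 3 of GFP-BM CON and 3 of GFP-BM REPOP, so the same holds for it. Some libraries did not match their region by neuron genes. Summed as a mean log2 level, 10 hippocampus neuron genes lay at 0.88 in WT CON hippocampus replicate 2 and at 1.18 and 1.67 in GFP-BM REPOP hippocampus replicates 1 and 4, against 3.37 to 4.39 in the other 9 hippocampus libraries and 0.98 to 2.51 in the cortex. GFP-BM REPOP hippocampus replicate 4 also held the highest level of striatum neuron genes of all libraries (6.97). These genes lay at 4.76, 5.49 and 5.49 in WT CON hippocampus replicates 1, 2 and 3, and at 2.10 in replicate 4. They lay at 2.81 to 3.07 in GFP-BM CON hippocampus and 2.49 to 3.57 in the other GFP-BM REPOP hippocampus libraries. WT CON hippocampus replicates 1 and 3 stay in when libraries low in hippocampus neuron genes are left out below. In the cortex, GFP-BM REPOP replicates 1 and 2 held thalamus neuron genes at 2.99 and 2.98, against 1.49 to 1.97 in the other cortex libraries. Choroid plexus genes were high in WT CON hippocampus replicate 1 (5.05) and GFP-BM CON hippocampus replicates 3 and 4 (4.78 and 5.14). Leaving out the 3 libraries low in hippocampus neuron genes or the 2 high in thalamus neuron genes changed no call of a member, and the values without them stand beside the cortex differences from WT CON of Clec7a, Apoe, Trem2 and Axl and the hippocampus differences of Clec7a, Apoe and Lpl.

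Clec7a, which encodes the beta-glucan receptor Dectin-1, rose in GFP-BM REPOP against WT CON in the cortex and thalamus. In the cortex it measured 0.276, 0.229 and 0.126 FPKM in WT CON, 0.182, 0.469, 0.271 and 0.169 in GFP-BM CON and 0.912, 0.959, 0.853 and 1.44 in GFP-BM REPOP. Every GFP-BM REPOP cortex library lay above every library of the other 2 groups, which overlapped. In the thalamus the values were 0.304, 0.337, 0.432 and 0.444 FPKM in WT CON, 0.44, 0.566 and 0.813 in GFP-BM CON and 2.01, 1.18, 1.15 and 1.82 in GFP-BM REPOP, and GFP-BM REPOP again overlapped neither group. The ratio of the means of GFP-BM REPOP and WT CON was 4.95 in the cortex and 4.06 in the thalamus. On the log2(FPKM + 0.1) scale, which understates the change of low genes, limma gave a difference of 1.88 (SE 0.31, adjusted p = 0.018) for the cortex and 1.75 (SE 0.25, adjusted p = 0.0186) for the thalamus, with Benjamini-Hochberg adjustment over 14710 genes. These values rest on 7 to 14 reads per library in WT CON cortex and 38 to 63 in GFP-BM REPOP cortex.

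In the hippocampus Clec7a was uneven within groups. It measured 0.221, 0.363, 0.461 and 0.282 FPKM in WT CON, 0.254, 0.884, 0.197 and 1.09 in GFP-BM CON and 0.631, 1.36, 0.714 and 2.28 in GFP-BM REPOP. GFP-BM REPOP did not overlap WT CON, but the difference of 1.51 (SE 0.51, adjusted p = 0.43) did not pass the test, and it was 1.41 without the 3 libraries low in hippocampus neuron genes. GFP-BM CON hippocampus replicates 2 and 4, the libraries with 0.884 and 1.09 FPKM, also held the highest level of marrow-derived macrophage genes of their group (0.43 and 0.40 as mean log2, against -0.68 and -0.60). Their part in the Clec7a values was not tested. Against GFP-BM CON, Clec7a in GFP-BM REPOP differed by 1.65 (SE 0.29, adjusted p = 0.0774) in cortex, 1.02 (SE 0.51, adjusted p = 0.46) in hippocampus and 1.21 (SE 0.27, adjusted p = 0.9999) in thalamus, none of which passed. The 95% intervals were 1.02 to 2.29, -0.092 to 2.13 and 0.62 to 1.81. In the cortex call, leaving out WT CON replicate 2, WT CON replicate 3 or GFP-BM REPOP replicate 4 gave adjusted p-values of 0.0562, 0.0784 and 0.0585, and in the thalamus call leaving out WT CON replicate 3, GFP-BM REPOP replicate 1 or GFP-BM REPOP replicate 3 gave 0.0615, 0.0744 and 0.0522. With all 9 groups in 1 fit the cortex call was lost (adjusted p = 0.0509) and the hippocampus difference passed (adjusted p = 0.0299), and correction for GC content lowered the thalamus difference to 0.98 (adjusted p = 0.13). Without the 2 cortex libraries high in thalamus neuron genes the cortex difference was 2.00 (adjusted p = 0.0483). With a pseudocount of 1 the differences were 0.75 in the cortex and 0.87 in the thalamus, and both passed. The thalamus call was also lost with quantile normalization (1.21, adjusted p = 0.0631) and with only the 2 groups compared (adjusted p = 0.059).

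Apoe was the other gene of the set that rose, in the cortex. It measured 982, 1074 and 1056 FPKM in WT CON, 1228, 1049.9, 1112 and 1049.9 in GFP-BM CON and 1655, 1409, 1399 and 1726 in GFP-BM REPOP. All 4 GFP-BM REPOP cortex libraries lay above all libraries of both other groups, and the mean ± SD was 1037 ± 48.7 FPKM for WT CON (n = 3), 1110.0 ± 84.2 for GFP-BM CON (n = 4) and 1547 ± 168 for GFP-BM REPOP (n = 4). The log2 difference of GFP-BM REPOP from WT CON was 0.57 (SE 0.085, adjusted p = 0.00968), a ratio of means of 1.49. Against GFP-BM CON the difference was 0.48 (SE 0.078, adjusted p = 0.0587) and lay just outside the threshold, while GFP-BM CON against WT CON gave 0.10 (SE 0.085, adjusted p = 0.65). Without the 2 GFP-BM REPOP cortex libraries high in thalamus neuron genes, Apoe still differed from WT CON by 0.58 (adjusted p = 0.0291). The call was lost without WT CON cortex replicate 1 (0.53, adjusted p = 0.0529), with only the 2 groups compared (adjusted p = 0.0522) and with all 9 groups in 1 fit (adjusted p = 0.45), where the spread of the other regions enters.

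In the other regions Apoe varied more between libraries. In the hippocampus it measured 1954, 1734, 1158 and 1492 FPKM in WT CON, 1576, 1705, 1476 and 2394 in GFP-BM CON and 2036, 2646, 2372 and 1979.5 in GFP-BM REPOP, which lay above all WT CON libraries. The difference from WT CON was 0.53 (SE 0.21, adjusted p = 0.48), and 0.74 without the 3 libraries low in hippocampus neuron genes. In the thalamus it measured 1380.0, 2373, 1731 and 1575 FPKM in WT CON, 1663, 1415 and 1597 in GFP-BM CON and 2098, 1833, 1906 and 2372 in GFP-BM REPOP, a difference from WT CON of 0.24 (SE 0.16, adjusted p = 0.31). WT CON thalamus replicate 2, which held the highest WT CON value, also stood apart in a measure of GC content (3.65, against 1.09 to 2.17 in the other WT CON thalamus libraries). In this measure all WT CON thalamus libraries lay above those of GFP-BM CON (0.46 to 0.83) and GFP-BM REPOP (0.51 to 0.94), so it ran along with treatment. WT CON cortex (0.76 to 1.25) lay above GFP-BM CON cortex (0.43 to 0.58) and overlapped GFP-BM REPOP cortex (0.41 to 0.99). With GC content and length corrected, the Apoe thalamus difference of GFP-BM REPOP from WT CON was 0.51 (adjusted p = 0.0405) and passed. With quantile normalization the thalamus difference was 0.0087 (adjusted p = 0.97) and the hippocampus difference 0.27 (adjusted p = 0.64).

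Because astrocytes are the main source of Apoe in the healthy brain, the 20 astrocyte genes listed without Apoe stand beside it. Their mean log2 level ranged from 5.40 to 5.51 in WT CON cortex, 5.34 to 5.49 in GFP-BM CON cortex and 5.34 to 5.49 in GFP-BM REPOP cortex. In GFP-BM REPOP against WT CON in the cortex, limma called none of the 20, 7 had an unadjusted p under 0.05, and voom on the recovered reads called 1. Their median log2 fold change was -0.066, with 4 above 0 and 16 below. In the hippocampus the median was 0.062, with 0 of 20 under an unadjusted p of 0.05, and in the thalamus -0.19, with 6 of 20, and neither limma nor voom called any. The hippocampus levels were 5.21 to 5.56 in WT CON, 5.73 to 5.82 in GFP-BM CON and 5.36 to 5.70 in GFP-BM REPOP. The level of marrow-derived macrophage genes in the cortex ranged from -1.44 to -1.08 in WT CON, -0.92 to -0.36 in GFP-BM CON and 0.64 to 1.33 in GFP-BM REPOP, without overlap between any of the 3 groups. Apoe overlapped between WT CON and GFP-BM CON there. Which cells held the additional Apoe transcript was not tested.

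Trem2 and Tyrobp, the receptor and its adaptor, were called in no comparison of treatments. Trem2 measured 10.97, 10.9 and 11.1 FPKM in WT CON cortex, 9.74, 9.203, 7.94 and 8.73 in GFP-BM CON cortex and 10.9, 7.65, 11.1 and 11.4 in GFP-BM REPOP cortex. The GFP-BM CON libraries lay below the 3 WT CON libraries, a difference of -0.30 (SE 0.12, adjusted p = 0.25) that did not pass. The pan-myeloid level described below was also lower there, at 2.90 to 2.95 in GFP-BM CON cortex against 3.01 to 3.10 in WT CON cortex, and its part in the Trem2 values was not tested. GFP-BM REPOP against WT CON gave -0.12 (SE 0.12, adjusted p = 0.73), with a 95% interval of -0.38 to 0.15, and 0.033 without the 2 GFP-BM REPOP libraries high in thalamus neuron genes. In the hippocampus the group means were 13.2 ± 1.503, 12.9 ± 2.35 and 14.9 ± 4.76 FPKM (SD, n = 4 each), and in the thalamus 13.6 ± 3.44 (n = 4), 11.2 ± 0.128 (n = 3) and 13.6 ± 1.77 (n = 4), with GFP-BM REPOP against WT CON at 0.12 and 0.028 on the log2 scale. The highest Trem2 value of all libraries was 20.8 FPKM in GFP-BM REPOP hippocampus replicate 2, which also held the highest pan-myeloid level (3.67).

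Tyrobp measured 20.4, 15.7 and 16.7 FPKM in WT CON cortex, 16.7, 13.2, 14.7 and 13.9 in GFP-BM CON cortex and 20.2, 14.8, 14.6 and 24.6 in GFP-BM REPOP cortex, and the 3 groups overlapped. GFP-BM REPOP against WT CON gave 0.052 (SE 0.17, adjusted p = 0.93) in cortex, 0.16 (SE 0.20, adjusted p = 0.79) in hippocampus and 0.081 (SE 0.16, adjusted p = 0.73) in thalamus. The 95% intervals, -0.31 to 0.42, -0.29 to 0.60 and -0.28 to 0.44, leave room for changes of moderate size in either direction. In the thalamus the 4 GFP-BM REPOP libraries (24.8, 27.3, 24.4 and 27.6 FPKM) lay above the 3 of GFP-BM CON (20.8, 19.4 and 19.95 FPKM), but WT CON spanned both (18.5 to 35.4 FPKM).

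Cst7, which encodes the cysteine protease inhibitor cystatin F, and Itgax, which encodes the integrin CD11c, were measured at low levels. Cst7 measured 0.227, 0.308 and 0.333 FPKM in WT CON cortex, 0.672, 0.928, 0.365 and 0.538 in GFP-BM CON cortex and 0.316, 0.816, 0.656 and 0.74 in GFP-BM REPOP cortex, from 5 to 18 reads a library. All 4 GFP-BM CON libraries lay above WT CON, a difference of 0.85 (SE 0.33, adjusted p = 0.23). GFP-BM REPOP against WT CON gave 0.86 (SE 0.33, adjusted p = 0.28). Set against GFP-BM CON, GFP-BM REPOP gave 0.0099 (adjusted p = 0.9997). In the hippocampus and thalamus Cst7 ranged from 0.162 to 1.41 FPKM, and GFP-BM CON and GFP-BM REPOP overlapped WT CON in both regions.

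Itgax measured 0.178, 0.13 and 0.0918 FPKM in WT CON cortex, 0.134, 0.152, 0.153 and 0.108 in GFP-BM CON cortex and 0.206, 0.271, 0.235 and 0.22 in GFP-BM REPOP cortex, where every library lay above those of the other 2 groups. In the thalamus it measured 0.278, 0.549, 0.323 and 0.263 FPKM in WT CON, 0.467, 0.499 and 0.46 in GFP-BM CON and 0.719, 0.783, 0.516 and 0.589 in GFP-BM REPOP, which overlapped WT CON through replicate 2 of the latter and did not overlap GFP-BM CON. In the hippocampus the 4 WT CON libraries lay between 0.145 and 0.172 FPKM, while GFP-BM CON replicates 2 and 4 reached 0.563 and 0.681 and GFP-BM REPOP replicates 3 and 4 reached 0.485 and 0.388. These values rest on 5 to 67 reads a library and have no test.

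**Figure D1:**
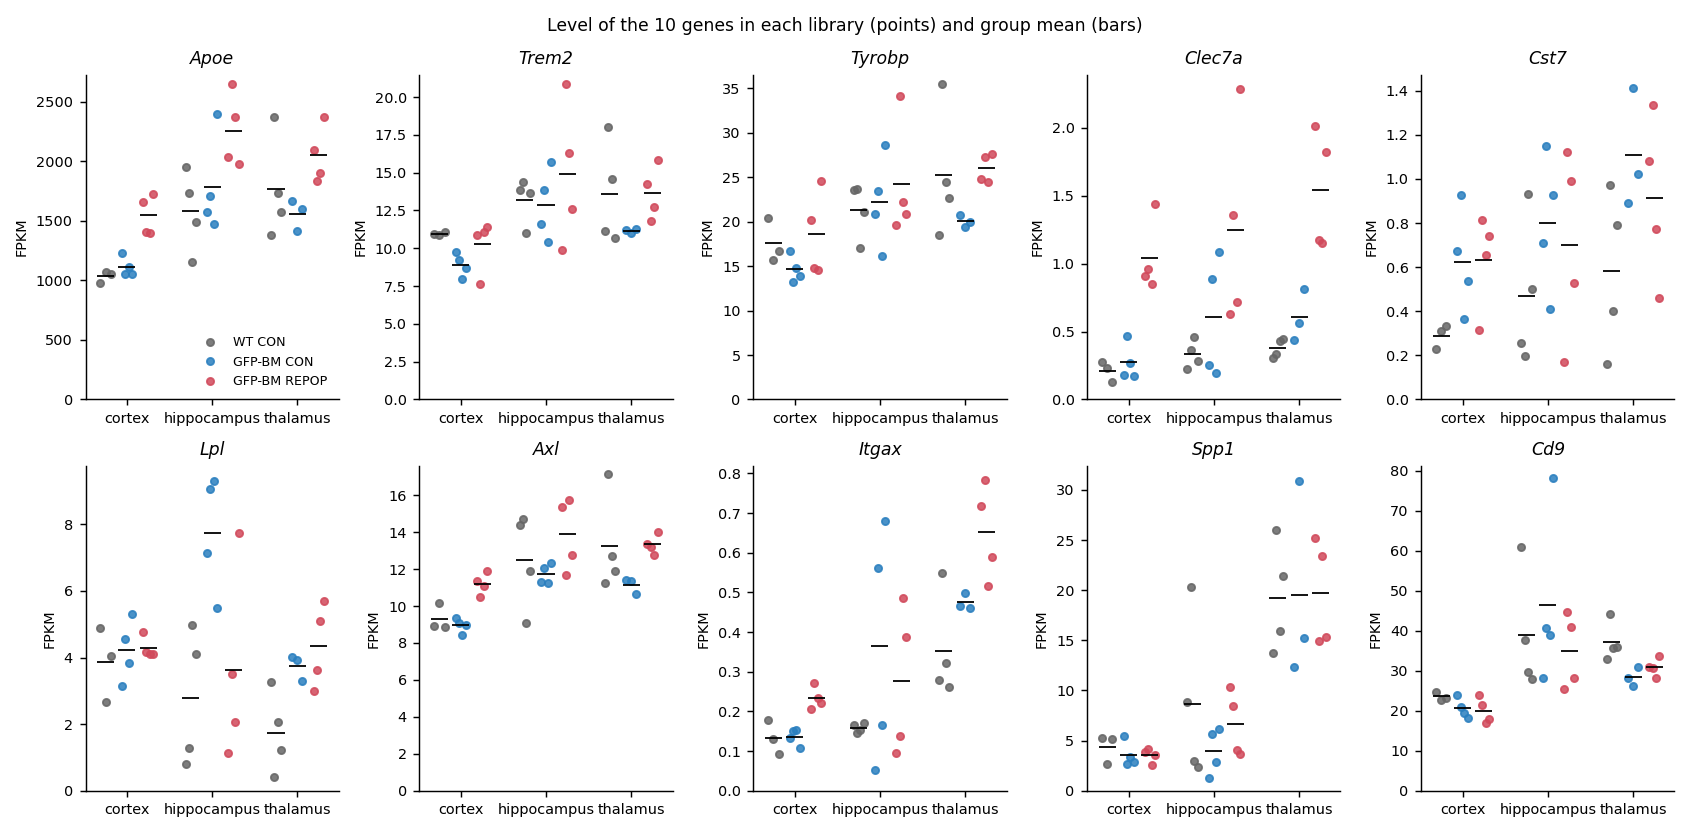
FPKM of each of the 10 genes on the vertical axis, which starts at 0, for the 3 regions on the horizontal axis. Points are libraries, colours are the 3 treatments, and black bars are group means. In the cortex the 4 GFP-BM REPOP libraries stand above all others for Apoe, Clec7a, Axl and Itgax, while Trem2 and Tyrobp overlap.

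Axl, a receptor tyrosine kinase by which phagocytes take up dying cells, also lay apart in the cortex but did not pass the test. It measured 8.93, 10.2 and 8.87 FPKM in WT CON, 9.37, 9.06, 8.44 and 8.97 in GFP-BM CON and 11.4, 10.5, 11.1 and 11.9 in GFP-BM REPOP. No GFP-BM REPOP library overlapped the other groups, and the differences were 0.27 (SE 0.067, adjusted p = 0.12) against WT CON and 0.32 (SE 0.062, adjusted p = 0.15) against GFP-BM CON. Without the 2 cortex libraries high in thalamus neuron genes they were 0.30 (adjusted p = 0.12) and 0.36 (adjusted p = 0.29). In the hippocampus and thalamus GFP-BM REPOP against WT CON gave 0.16 (adjusted p = 0.70) and 0.029 (adjusted p = 0.87). The GFP-BM REPOP thalamus libraries, at 13.3, 13.2, 12.7 and 14.03 FPKM, lay above the GFP-BM CON libraries at 11.4, 11.4 and 10.6, with WT CON spanning 11.2 to 17.2.

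Lpl, which encodes lipoprotein lipase, varied widely within groups in the hippocampus and WT CON thalamus. In the hippocampus it measured 0.798, 1.296, 4.97 and 4.104 FPKM in WT CON, 7.13, 9.05, 9.31 and 5.48 in GFP-BM CON and 1.13, 3.49, 2.08 and 7.75 in GFP-BM REPOP. GFP-BM CON lay above WT CON without overlap, by 1.76 (SE 0.61, adjusted p = 0.12). Set against GFP-BM CON, GFP-BM REPOP gave -1.38 (adjusted p = 0.42), where the groups overlapped. These differences were 1.52 (adjusted p = 0.24) and -1.46 (adjusted p = 0.49) without the 3 libraries low in hippocampus neuron genes. In the thalamus it measured 3.26, 0.427, 2.05 and 1.24 FPKM in WT CON, 4.01, 3.92 and 3.28 in GFP-BM CON and 3.001, 3.62, 5.11 and 5.68 in GFP-BM REPOP. GFP-BM CON exceeded WT CON by 1.35 (SE 0.51, adjusted p = 0.20) and GFP-BM REPOP exceeded WT CON by 1.52 (SE 0.47, adjusted p = 0.11), and neither passed. Without WT CON thalamus replicate 1 both passed, at 1.73 (adjusted p = 0.0435) and 1.91 (adjusted p = 0.0203), and with all 9 groups in 1 fit GFP-BM REPOP against WT CON in the thalamus (adjusted p = 0.0434) passed, as did GFP-BM CON against WT CON in the hippocampus (adjusted p = 0.0179). In the cortex Lpl ranged from 2.65 to 5.32 FPKM with all groups overlapping. Cortex neuron genes lay in the thalamus libraries at 2.38 to 3.58 (mean log2) in WT CON, 3.10 to 3.34 in GFP-BM CON and 2.91 to 3.65 in GFP-BM REPOP. Their part in the Lpl values was not tested.

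Cd9, a tetraspanin of myelin-forming and other glial cells, and Spp1, which encodes osteopontin, were not called in any comparison. Cd9 measured 32.8, 44.3, 35.6 and 36.01 FPKM in WT CON thalamus, 28.3, 26.2 and 31.05 in GFP-BM CON and 31.02, 30.6, 28.2 and 33.7 in GFP-BM REPOP. GFP-BM CON lay below WT CON without overlap, by -0.38 (SE 0.11, adjusted p = 0.13), which passed only when WT CON replicate 1 was left out (-0.43, adjusted p = 0.0478). GFP-BM REPOP against WT CON gave -0.26 (SE 0.10, adjusted p = 0.17) in the thalamus and -0.25 (SE 0.12, adjusted p = 0.37) in the cortex. In the hippocampus the 2 highest Cd9 values, 60.9 FPKM in WT CON replicate 1 and 78.2 in GFP-BM CON replicate 4, were in libraries high in choroid plexus genes (5.05 and 5.14), and the latter also held the highest oligodendrocyte level of all libraries (6.82). Of the exon bases of Cd9, 10.7% overlap the gene Gm26728 on the other strand, and reads of these could not be told apart unless strand was used in counting.

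Spp1 was on average highest in the thalamus under every treatment. It measured 13.7, 25.98, 15.9 and 21.4 FPKM in WT CON thalamus, 12.4, 30.9 and 15.3 in GFP-BM CON and 25.2, 14.9, 23.5 and 15.3 in GFP-BM REPOP, against 2.61 to 5.49 over all cortex libraries. GFP-BM REPOP against WT CON gave -0.25 (adjusted p = 0.75) in the cortex and 0.037 (adjusted p = 0.94) in the thalamus. In the hippocampus the highest value, 20.3 FPKM, was in WT CON replicate 2, one of the libraries low in hippocampus neuron genes. Of the exon bases of Spp1, 18.8% are shared with Gm42793 on the same strand.

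Counted over the set, GFP-BM REPOP against WT CON called 2 of the 9 tested genes in the cortex (Apoe and Clec7a, both higher), where limma called 0.734% of all 14710 genes and 0.401% as higher. It called 1 in the thalamus (Clec7a), where 0.836% of all genes were called, and none in the hippocampus, where 0.0136% were called. Clec7a passed the filter mainly through GFP-BM REPOP libraries, so its calls do not compare evenly with these shares. From these libraries the study itself listed Apoe and Clec7a in a gene module raised in GFP-BM REPOP. An unadjusted p under 0.05 in the hippocampus was reached by 2 members (Apoe and Clec7a) and by 9.67% of all genes. The median log2 fold change of the 9 was 0.18 in cortex, 0.17 in hippocampus and 0.081 in thalamus, beside 0.016, 0.004 and -0.054 over all genes. GFP-BM CON against WT CON called none of the 9 in any region by limma or by voom on the recovered reads. An unadjusted p under 0.05 was reached by 2 members in the cortex (Trem2 and Cst7), 1 in the hippocampus (Lpl) and 2 in the thalamus (Lpl and Cd9), beside 16.0%, 23.9% and 20.7% of all genes. After adjustment 0.32%, 0.0% and 0.0% of all genes were called. GFP-BM REPOP against GFP-BM CON likewise called none by limma or voom, with 3 members in the cortex (Apoe, Clec7a and Axl), 1 in the hippocampus (Lpl) and 2 in the thalamus (Apoe and Clec7a) under an unadjusted 0.05, beside 4.27%, 11.7% and 0.945% of all genes. After adjustment 0.0476%, 0.0272% and 0.0% of all genes were called. The 3 comparisons of a region share their groups, so these counts are not independent of each other.

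The groups were also compared by overlap alone. In GFP-BM REPOP against WT CON, 4 of the 10 genes (Apoe, Clec7a, Axl and Itgax) were higher without overlap in cortex, 2 (Apoe and Clec7a) in hippocampus and 1 (Clec7a) in the thalamus, where 4.89%, 2.12% and 11.9% of tested genes did so. In GFP-BM REPOP against GFP-BM CON the same 4 were higher without overlap in the cortex and 6 (these 4, Trem2 and Tyrobp) in the thalamus, where 1.41% and 2.32% of tested genes did so, and none in the hippocampus, where 4.12% did so. The pan-myeloid level described below was likewise higher without overlap, at 2.98 to 3.27 against 2.90 to 2.95 in the cortex. In the thalamus it was 3.23 to 3.45 against 3.10 to 3.20. Set against that level in the same library, Apoe and Clec7a stayed apart from GFP-BM CON in both regions. Trem2, Tyrobp, Axl and Itgax overlapped in both. In GFP-BM CON against WT CON, Cst7 was higher and Trem2 lower in the cortex, Lpl was higher in the hippocampus, and Lpl was higher and Cd9 lower in the thalamus. The share of all genes higher without overlap there was 11.5%, 5.42% and 14.6%, and the share lower was 4.43%, 8.32% and 8.43%.

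**Figure D2:**
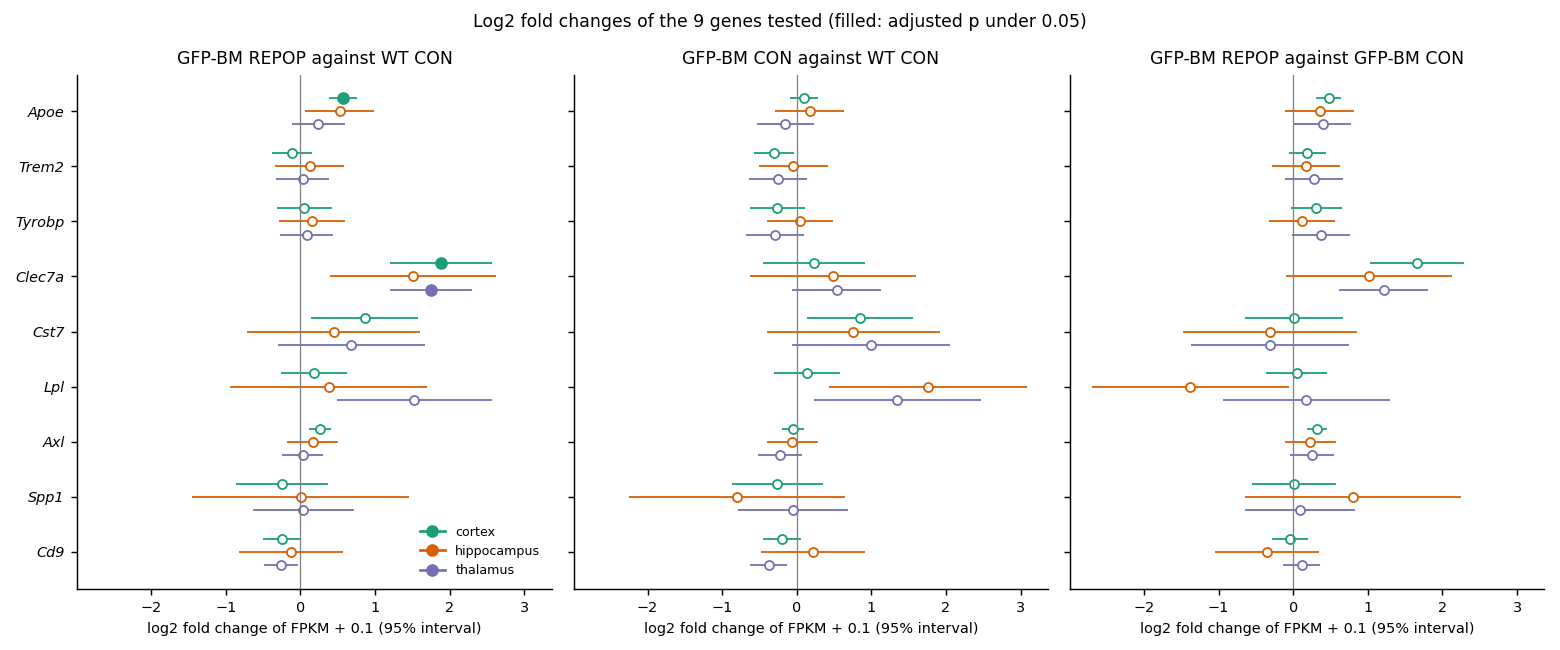
Log2 fold change of FPKM + 0.1 with its 95% interval on the horizontal axis for the 9 tested genes, 1 panel for each comparison and 1 colour for each region, from limma. Filled points passed an adjusted p of 0.05, and only Clec7a (cortex and thalamus) and Apoe (cortex) in GFP-BM REPOP against WT CON are filled.

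Levels differed between regions already in WT CON. Apoe was lowest in the cortex, at 1037 ± 48.7 FPKM (SD, n = 3), and higher in the hippocampus, at 1584 ± 341 (SD, n = 4), and thalamus, at 1765 ± 430 (SD, n = 4). By limma, fitted to the 34 libraries at once and with animal as random effect, the hippocampus exceeded the cortex by 0.59 (SE 0.17, adjusted p = 0.0105) and the thalamus exceeded it by 0.74 (SE 0.17, adjusted p = 0.00333), while hippocampus and thalamus did not differ beyond their spread (adjusted p = 0.55). Axl was likewise higher in the hippocampus and thalamus than in the cortex, by 0.40 (adjusted p = 0.0222) and 0.49 (adjusted p = 0.0101), as was Cd9, by 0.66 (adjusted p = 0.0386) and 0.65 (adjusted p = 0.0471). Spp1 was higher in the thalamus than in the cortex by 2.14 (SE 0.55, adjusted p = 0.00648) and than in the hippocampus by 1.62 (SE 0.51, adjusted p = 0.0292). Lpl in the thalamus differed from the cortex by -1.36 (SE 0.55, adjusted p = 0.0594), which did not pass, and passed without WT CON thalamus replicate 1 (-1.75, adjusted p = 0.0167) or without WT CON hippocampus replicate 1 or 3. Tyrobp in the thalamus differed from the cortex by 0.49 (SE 0.21, adjusted p = 0.0729), which did not pass, and by 0.63 (adjusted p = 0.0224) without WT CON thalamus replicate 1, which did. Trem2, Clec7a and Cst7 passed between no pair of regions. These 3, 4 and 1 members called compare with 36.9% of all genes in hippocampus against cortex, 30.0% in thalamus against cortex and 17.7% in thalamus against hippocampus, so a call between regions was common. Several were lost when 1 WT CON library was left out. Apoe between hippocampus and cortex was lost without hippocampus replicate 1 (0.48, adjusted p = 0.051). Axl between hippocampus and cortex was lost without cortex replicate 1 or 3, or hippocampus replicate 1 or 2. Spp1 between thalamus and hippocampus was lost without hippocampus replicate 3 or 4, or thalamus replicate 4. Cd9 between hippocampus and cortex was lost without any one of the 3 cortex libraries, or without hippocampus replicate 1 or 2. Between thalamus and cortex, Cd9 was lost without any one of the 3 cortex libraries, hippocampus replicate 2, or thalamus replicate 2, 3 or 4. Axl between thalamus and cortex was lost without cortex replicate 3 or thalamus replicate 2.

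Whether a treatment effect differed between regions was tested in the same fit. None of the 81 differences over the 9 tested genes passed by limma, the smallest adjusted p was 0.49, and 2 had an unadjusted p under 0.05, both for Lpl. The first was GFP-BM CON against WT CON, larger in the hippocampus than in the cortex by 1.62 (SE 0.75), and the other GFP-BM REPOP against GFP-BM CON, larger in the thalamus than in the hippocampus by 1.56 (SE 0.75). Over all genes 0.0% to 0.177% of such differences were called, with 0.034% for GFP-BM REPOP against WT CON in hippocampus against cortex and 0.0272% for thalamus against hippocampus in GFP-BM REPOP set against GFP-BM CON. The call of Apoe in the cortex alone is therefore not shown to be a difference between regions.

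The level of each gene was also set against 15 pan-myeloid genes, which microglia and marrow-derived macrophages share, as the log2 level of the gene minus the mean log2 level of the list in the same library. The list itself overlapped between GFP-BM REPOP and WT CON, at 2.98 to 3.27 and 3.01 to 3.10 in the cortex, 3.08 to 3.67 and 3.06 to 3.36 in the hippocampus, and 3.23 to 3.45 and 3.17 to 3.58 in the thalamus. On this scale, which has no test, Clec7a in GFP-BM REPOP exceeded WT CON by 1.83 in cortex, 1.39 in hippocampus and 1.76 in the thalamus, without overlap in any region. Apoe exceeded it by 0.52 in the cortex and 0.41 in the hippocampus without overlap, and by 0.26 in the thalamus with overlap. With the median of the list in place of its mean the hippocampus values were 0.17 for Apoe, -0.23 for Trem2 and -0.20 for Tyrobp. Trem2 differed by -0.17, 0.006 and 0.042 and Tyrobp by -0.004, 0.039 and 0.095, all with overlap. Itgax lay higher without overlap in the thalamus (0.77). Cd9 lay lower without overlap in the cortex (-0.30) and thalamus (-0.25). Cst7, Lpl, Axl and Spp1 overlapped in all 3 regions, with differences between -0.30 and 1.54. GFP-BM CON also stood apart from WT CON on this scale. In the thalamus Itgax (0.59), Clec7a (0.74), Cst7 (1.20) and Lpl (1.55) lay higher and Cd9 (-0.18) lower without overlap. In the cortex Apoe (0.24) and Cst7 (0.99) lay higher without overlap. GFP-BM REPOP and GFP-BM CON overlapped for Itgax and Cd9 in all 3 regions.

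**Figure D3:**
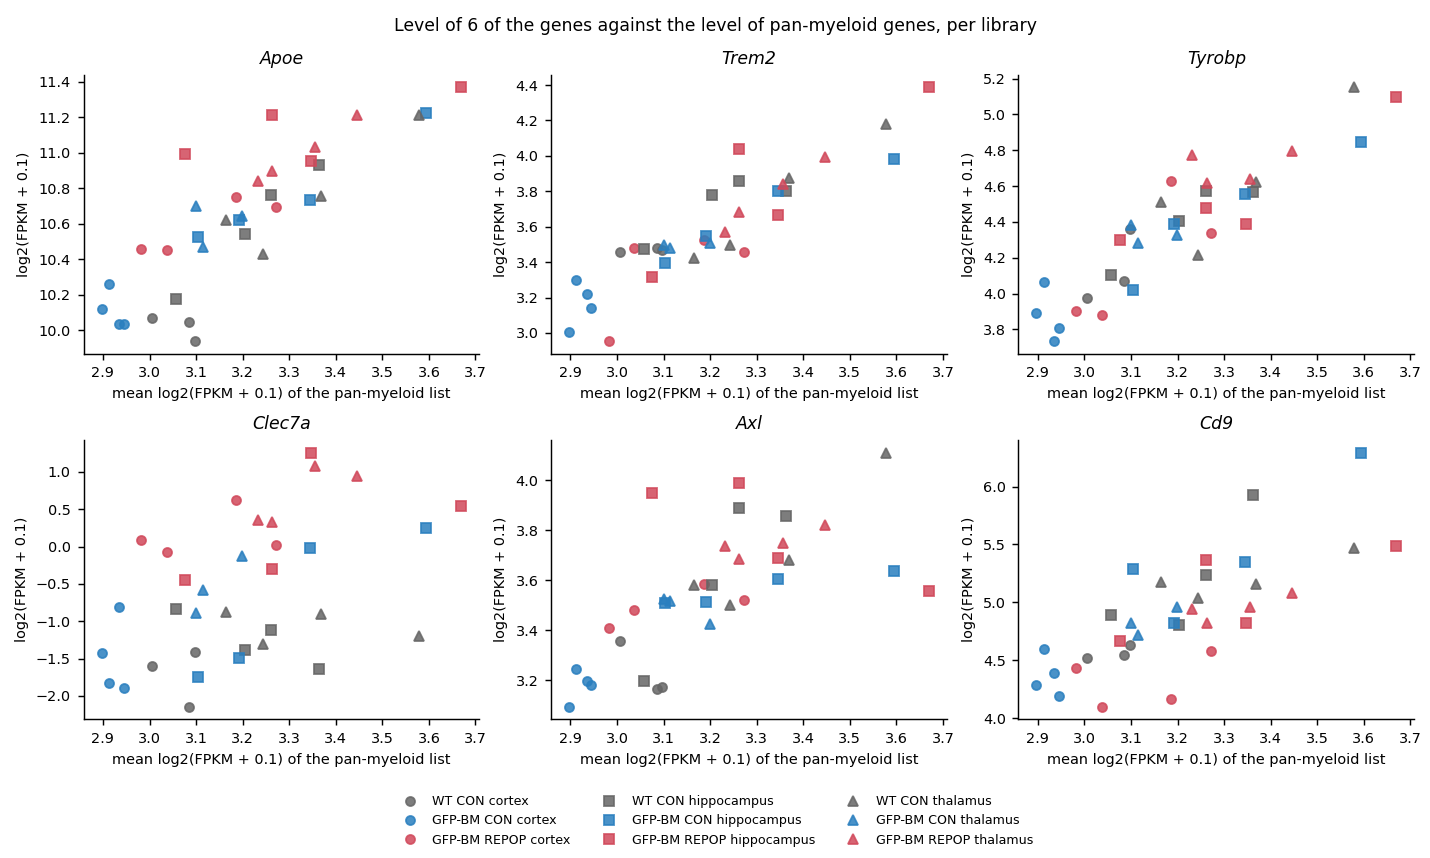
Log2(FPKM + 0.1) of 6 of the genes (vertical axis) against the mean log2(FPKM + 0.1) of the pan-myeloid list (horizontal axis), 1 point for each of the 34 libraries, with colour for treatment and shape for region. For Clec7a the GFP-BM REPOP points of the cortex and thalamus lie above all other points of their region, while GFP-BM CON hippocampus replicates 2 and 4 (0.884 and 1.09 FPKM) lie among those of GFP-BM REPOP hippocampus. For Trem2 and Tyrobp the 3 treatments lie along 1 band.

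Other genes of the disease-associated state, of TREM2 signalling and of lipid handling mostly did not pass. Of 25 other disease-associated genes tested, GFP-BM REPOP against WT CON called 2 higher in the cortex (Lilrb4a and Cybb), where 0.734% of all genes were called. It called 3 higher in the thalamus (these 2 and Igf1), where 0.836% were called, none lower, and none in the hippocampus. The medians of the 25 were 0.027 in cortex, -0.096 in thalamus and 0.11 in hippocampus on the log2 scale. Lilrb4a, an inhibitory myeloid receptor that the study itself named from these libraries, measured 2.73 ± 0.698 FPKM (SD, n = 4) in GFP-BM REPOP cortex and 0.378 ± 0.166 (SD, n = 3) in WT CON cortex. Cybb, the catalytic subunit of the phagocyte NADPH oxidase, measured 1.87 ± 0.612 FPKM (SD, n = 4) and 0.169 ± 0.124 (SD, n = 3). Igf1, a growth factor, measured 1.22 ± 0.387 FPKM (SD, n = 4) in GFP-BM REPOP thalamus and 0.257 ± 0.125 (SD, n = 4) in WT CON thalamus. These WT CON means lay under the 1 FPKM of the filter and the GFP-BM REPOP means above it. The filter could thus favour such genes where they were high, as it did Clec7a. Ccl6, a chemokine of the same list, stood lower without passing, at -1.03, -0.97 and -1.17 in cortex, hippocampus and thalamus, the last with an adjusted p of 0.0529.

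None of 12 tested receptor partners, kinases, phosphatases and adaptors around TREM2 and TYROBP was called by limma or voom in any comparison. In GFP-BM REPOP against WT CON 1 of the 12 had an unadjusted p under 0.05 in each region, and their medians were -0.063 in cortex, -0.11 in hippocampus and -0.074 in thalamus. Of these, Cd33, an inhibitory sialic acid receptor, measured 2.74 ± 0.314 FPKM (SD, n = 4) in GFP-BM REPOP thalamus and 1.77 ± 0.358 (SD, n = 4) in WT CON thalamus, a log2 difference of 0.62 (SE 0.17, adjusted p = 0.0805). Blnk and Grb2, both adaptors, differed by 0.20 and 0.038 in the cortex. Likewise none of 20 genes of lipid efflux, lipoprotein receptors and sterol metabolism was called by limma or voom, with 1, 1 and 3 under an unadjusted p of 0.05 in cortex, hippocampus and thalamus and medians of -0.067, -0.082 and -0.19. Of all 14710 genes, 2107, 1423 and 3677 were under that p in these regions. Abca1, which loads cellular cholesterol onto APOE, measured 4.71 ± 0.314 FPKM (SD, n = 4) in GFP-BM REPOP cortex and 3.95 ± 0.567 (SD, n = 3) in WT CON cortex, a log2 difference of 0.26 with an adjusted p of 0.29. Abcg1, a cholesterol exporter, gave -0.086 in the cortex.

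Lists of the cells that could carry the genes moved in other ways. Marrow-derived macrophage genes, some of which the study named from these libraries, were called higher for 6 of 7 in the cortex and 6 of 7 in the thalamus in GFP-BM REPOP against WT CON, with medians of 2.10 and 2.00, and for none in the hippocampus by limma or voom (median 1.66), where 5 had an unadjusted p under 0.05. Lyz2, the lysozyme of mature phagocytes, measured 65.5 ± 16.5 FPKM (SD, n = 4) in GFP-BM REPOP cortex and 7.46 ± 0.556 (SD, n = 3) in WT CON cortex. Homeostatic microglia genes fell for 7 of 16 in the cortex and 3 of 16 in the thalamus, with medians of -0.46 and -0.47. In the hippocampus limma called none of the 16, voom called 1, 8 had an unadjusted p under 0.05, and the median was -0.44. In the cortex the log2 difference was -2.42 (SE 0.25, adjusted p = 0.00182) for Crybb1, a crystallin, and -1.75 (SE 0.22, adjusted p = 0.00395) for Selplg, the ligand of P-selectin, and the 3 in the thalamus were these 2 and Slc2a5, a fructose transporter. Of 14 pan-myeloid genes tested, Itgam, the integrin CD11b, was the one called, at a log2 difference of -0.65 in the cortex and -0.58 in the thalamus (adjusted p of 0.0463 and 0.0481). In the hippocampus limma called none of the 14, voom called 1, and 1 had an unadjusted p under 0.05. Border macrophage genes were called higher for Mrc1 and Stab1 in the cortex and Mrc1 in the thalamus, of 5 tested, and for none in the hippocampus by limma or voom, where 1 had an unadjusted p under 0.05. Of 12 oligodendrocyte genes limma and voom called none, with 0, 3 and 4 under an unadjusted p of 0.05 and medians of -0.053, 0.35 and -0.13 in cortex, hippocampus and thalamus. Beside these lists, 2107, 1423 and 3677 of all 14710 genes were under that p in the 3 regions. Limma called 0.734%, 0.0136% and 0.836% of all genes there. The study itself named Crybb1, Slc2a5, Itgam and Mrc1, among others, from these same libraries. The macrophage and homeostatic lists moved in the libraries in which Apoe and Clec7a were high, and their part in those values was not tested.

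**Figure D4:**
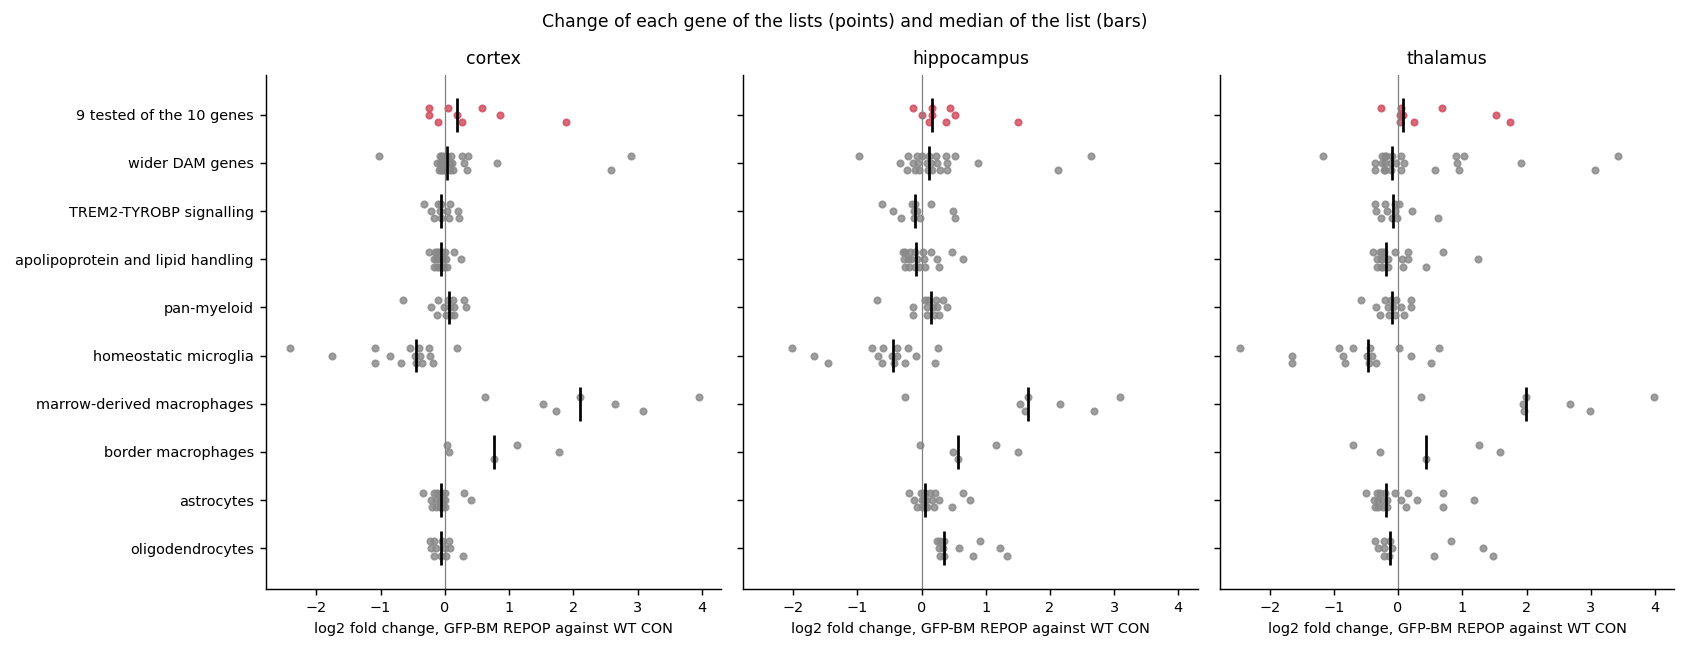
Log2 fold change in GFP-BM REPOP against WT CON (horizontal axis) of each tested gene of 10 lists (vertical axis), 1 panel for each region. Points are genes and black bars are list medians; the 9 tested genes of the set are red. The bars of the marrow-derived macrophage list sit at 2.10, 1.66 and 2.00 and those of the 9 genes at 0.18, 0.17 and 0.081.

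The genes most like each member were found by Pearson correlation of log2(FPKM + 0.1) over the 34 libraries after the mean of each region was subtracted. Differences between treatments were not subtracted, so genes that changed alike with treatment correlate for that reason. These correlations also share library, depth and tissue composition and are given with no test. Clec7a was most like Gpr65 (r = 0.93), Lyz2 (0.91) and C3ar1 (0.90). Apoe was most like Tmem176a (0.85), Slc11a1 (0.83) and Adgre1 (0.81). Trem2 was most like C1qb (0.87), C1qa (0.85) and Ctss (0.85), and Tyrobp like C1qa (0.86), C1qc (0.83) and Trem2 (0.80). Axl was most like Fchsd1 (0.77), Apoe (0.76) and Abcc3 (0.75). Lpl was most like Dock4 (0.94), Sema3e (0.93) and Rbfox1 (0.93), Cd9 like Cd82 (0.94), Tmem98 (0.92) and Cers2 (0.90), and Spp1 like Rassf4 (0.88), Col9a2 (0.85) and Clic1 (0.82). Cst7, with few reads, reached 0.63 with Gm266, 0.61 with Dnajc24 and 0.59 with Dctn4. Between members, Apoe and Clec7a correlated at 0.65 and Trem2 and Tyrobp at 0.80.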

How the data were processed

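Bulk RNA from 3 brain regions of 12 mice was sequenced in 34 libraries. The authors deposited FPKM values per gene. The submitters' processing notes name STAR, featureCounts, edgeR and limma and the mm10 build and give no versions. Groups came from the sample labels, and replicates of a group are separate animals, each giving up to 3 regions.

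From the deposited FPKM values, whole reads were recovered (100.0% within 0.01 read of a whole number) to give the depth. Genes at 1 FPKM or more in at least 3 libraries and annotated as protein coding, lncRNA or unmatched were kept (14710 of 16389). Each region was fitted with limma 3.58.1 in R 4.3.3 on log2(FPKM + 0.1), with its 3 groups in 1 fit and Benjamini-Hochberg adjustment over all genes, at a two-sided threshold of 0.05. Regions were compared in a joint fit of the 34 libraries, with animal as random effect (correlation -0.038). The fit was tested on simulated data. The alternatives were other pseudocounts (1 and 0.01), filters, quantile normalization, groupings of samples, a replicate block, voom on the recovered reads, a correction for GC content and length, and leaving out single libraries. A further 2 alternatives, without libraries that stand apart by neuron genes, were chosen after seeing the data.

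The 10 genes and the gene lists were chosen with earlier results of these data known. Named from each list were up to 3 genes of smallest mean rank of p in GFP-BM REPOP against WT CON, plus called genes where a count is 5 or fewer, and, for each tested member, its 3 most correlated genes. One gene that this rule named is not reported here. Levels of a list are means of log2(FPKM + 0.1), and the GC measure compares GC-rich with GC-poor genes within a library.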

Additional observations from a re-analysis of the deposited data

Results flagged for a closer look

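Among 70 sets of 4 libraries of 1 group and 1 gene, 2 held a library whose gap to its nearest neighbour, divided by the range of the group, exceeded Dixon's critical value for 4 samples. Chance flags about 1 in 20 such sets. Trem2 measured 7.65 FPKM in GFP-BM REPOP cortex replicate 2, below the other 3 libraries of its group. Lpl measured 4.76 FPKM in GFP-BM REPOP cortex replicate 1, above the other 3. Both libraries are those high in thalamus neuron genes.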

How the results depend on the processing

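Of 846 refits of the member fold changes other than leaving out 1 library, 808 kept their direction and their side of the threshold, 9 lost a call, 6 gained one and 23 changed sign. None of the values that changed sign had passed the test. Over the 9 comparisons of treatments, 3 members were called as reported, and 0 to 4 under the alternatives. In GFP-BM REPOP against WT CON, the cortex count of 2 became 1 with a mean of at least 1 FPKM in the region or with only the 2 groups compared, and 0 with all 9 groups in 1 fit. The thalamus count of 1 became 2 with all 9 groups in 1 fit, and 0 with quantile normalization, a mean of at least 1 FPKM in the region or only the 2 groups compared. With a mean of at least 1 FPKM Clec7a was not tested, which accounts for those 2 losses. With GC content and length corrected the thalamus count stayed at 1, but the gene called was Apoe in place of Clec7a. The hippocampus count rose to 1 with all 9 groups in 1 fit in GFP-BM REPOP against WT CON and in GFP-BM CON against WT CON. In GFP-BM REPOP against GFP-BM CON the cortex count rose to 1 with a pseudocount of 1 or with GC content and length corrected. The causes of the other changes were not tested.

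Replicate numbers are shared by the groups, but same-numbered libraries did not deviate together (correlations of -0.114 to 0.249 in the cortex, -0.433 to 0.49 in the hippocampus and -0.355 to 0.144 in the thalamus), so they share only a number. With the replicate block the calls of Apoe and Clec7a in the cortex and of Clec7a in the thalamus were lost, so 0 members were called in the cortex, 0 in the thalamus and none in the other comparisons. Calls over all genes depended on the fit: with all 9 groups in 1 fit 27, 411 and 1954 genes were called in GFP-BM REPOP against WT CON in cortex, hippocampus and thalamus, against 108, 2 and 123 as reported.

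Without the 2 cortex libraries high in thalamus neuron genes, an alternative chosen after seeing the data, the sign changed for Trem2 (0.0334) in GFP-BM REPOP against WT CON, cortex, Lpl (-0.011) and Spp1 (-0.185) in GFP-BM REPOP against GFP-BM CON, cortex. With the replicate block the sign changed for Tyrobp (-0.0096) in GFP-BM REPOP against WT CON, cortex. With a pseudocount of 1 the sign changed for Spp1 (-0.0378) in GFP-BM REPOP against WT CON, hippocampus. With quantile normalization the sign changed for Spp1 (-0.0343) in GFP-BM REPOP against WT CON, hippocampus, Apoe (-0.314) and Clec7a (-0.0561) in GFP-BM CON against WT CON, hippocampus, Clec7a (-0.0558) in GFP-BM CON against WT CON, thalamus, Cst7 (-0.0685) in GFP-BM REPOP against GFP-BM CON, cortex. With voom on the recovered reads the sign changed for Spp1 (-0.024) in GFP-BM REPOP against WT CON, hippocampus, Cst7 (-0.0002) and Spp1 (-0.027) in GFP-BM REPOP against GFP-BM CON, cortex. With GC content and length corrected the sign changed for Spp1 (-0.268) in GFP-BM REPOP against WT CON, hippocampus, Spp1 (-0.426) in GFP-BM REPOP against WT CON, thalamus, Clec7a (-0.016) in GFP-BM CON against WT CON, cortex, Clec7a (-0.173) and Axl (0.0921) in GFP-BM CON against WT CON, hippocampus, Apoe (0.119) and Clec7a (-0.286) in GFP-BM CON against WT CON, thalamus. Without the 3 hippocampus libraries low in hippocampus neuron genes, likewise chosen after seeing the data, the sign changed for Cd9 (0.216) in GFP-BM REPOP against WT CON, hippocampus, Axl (0.0219) in GFP-BM CON against WT CON, hippocampus, Cst7 (0.436) in GFP-BM REPOP against GFP-BM CON, hippocampus.

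Leaving out 1 library at a time changed a call or a sign of these fold changes, given from the lowest to the highest: Apoe 0.517 to 0.618, Trem2 -0.171 to 0.018, Tyrobp -0.0946 to 0.165, Clec7a 1.671 to 2.038 and Lpl -0.0597 to 0.371 in GFP-BM REPOP against WT CON, cortex, Trem2 -0.0551 to 0.302, Tyrobp -0.0202 to 0.245, Lpl -0.0947 to 0.796, Spp1 -0.432 to 0.582 and Cd9 -0.267 to 0.108 in GFP-BM REPOP against WT CON, hippocampus, Trem2 -0.0785 to 0.174, Tyrobp -0.0556 to 0.257, Clec7a 1.612 to 1.863, Lpl 1.018 to 1.91, Axl -0.0424 to 0.16 and Spp1 -0.111 to 0.194 in GFP-BM REPOP against WT CON, thalamus, Lpl -0.105 to 0.326 and Axl -0.0878 to 0.0086 in GFP-BM CON against WT CON, cortex, Trem2 -0.147 to 0.0495, Tyrobp -0.089 to 0.185, Axl -0.209 to 0.0219 and Cd9 -0.0622 to 0.46 in GFP-BM CON against WT CON, hippocampus, Lpl 0.843 to 1.734, Spp1 -0.44 to 0.217 and Cd9 -0.44 to -0.29 in GFP-BM CON against WT CON, thalamus, Apoe 0.421 to 0.525, Cst7 -0.184 to 0.261, Lpl -0.0828 to 0.163, Spp1 -0.104 to 0.229 and Cd9 -0.131 to 0.0332 in GFP-BM REPOP against GFP-BM CON, cortex, Trem2 -0.0086 to 0.349, Tyrobp -0.0618 to 0.245 and Cst7 -0.586 to 0.143 in GFP-BM REPOP against GFP-BM CON, hippocampus, Spp1 -0.181 to 0.476 in GFP-BM REPOP against GFP-BM CON, thalamus. The count of members called then ranged from 1 to 2 for GFP-BM REPOP against WT CON, cortex, 0 to 2 for GFP-BM REPOP against WT CON, thalamus, 0 to 2 for GFP-BM CON against WT CON, thalamus, 0 to 1 for GFP-BM REPOP against GFP-BM CON, cortex, 0 to 3 for hippocampus against cortex, 2 to 6 for thalamus against cortex and 0 to 1 for thalamus against hippocampus.

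Set against the median instead of the mean of the pan-myeloid list, the hippocampus difference of GFP-BM REPOP and WT CON moved to 0.172 for Apoe, -0.232 for Trem2 and -0.199 for Tyrobp. In WT CON 3 to 21 reads a library lay behind Cst7, 9 to 46 behind Itgax and 7 to 25 behind Clec7a, and no detection limit was computed.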
